A study of Rattus norvegicus with 6 samples.

Results

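The miR-181 family was followed in rat small RNA libraries made after testicular torsion. Its members were the entries of the deposited miRNA table whose names begin with miR-181a, miR-181b, miR-181c or miR-181d, which gave 10 of 764 entries. All 10 had a value above 0 in some library, as did 570 entries in all. There were 3 HO-1 knockout and 3 wild type libraries, all from male Sprague Dawley rats and labelled as testicle. In every animal group the left testicle had been twisted by 720° for 2 h and then left in place for 3 days of reperfusion. Both genotypes thus carried the same injury, and genotype was the only contrast. HO-1 is heme oxygenase 1, the enzyme that degrades heme under stress. The sources used here do not give the way the knockout was made or the age of the rats, and no uninjured tissue was analysed here. Whether each library came from a different rat is not stated, so the p-values below measure the spread between these libraries only.

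A microRNA is cut from a hairpin precursor as a pair of short strands, the 5p arm and the 3p arm, and the strand that is kept guides the silencing of messenger RNAs that match its seed. In the miR-181 family the 5p arm is the usual guide. miR-181a is known for tuning T cell receptor signalling in thymocytes by repressing phosphatases, miR-181b for damping NF-κB signalling in endothelium through an importin, and miR-181c for acting on a mitochondrial messenger RNA in heart muscle.

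The mature sequences are shown because the family is defined by its seed and because small differences outside it decide which entry a read is counted in. RefSeq mature sequences (table on GRCr8) matched 9 of the 10 entries by name, all but miR-181b-2-3p. The 4 guides are given 5′ to 3′, with the seed, bases 2 to 8, in capitals:
miR-181a-5p: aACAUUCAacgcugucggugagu
miR-181b-5p: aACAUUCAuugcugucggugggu
miR-181c-5p: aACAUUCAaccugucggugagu
miR-181d-5p: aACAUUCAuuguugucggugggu

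All 4 guides carried the seed ACAUUCA, and none of the other entries among the 689 with a RefSeq sequence did. Counted from 1 at the 5′ end, miR-181b-5p differs from miR-181a-5p by A9U, C10U and A21G, and miR-181d-5p differs from miR-181b-5p by C12U alone. Removing position 11 of miR-181a-5p gives miR-181c-5p. The sources used here give no mismatch rule for the read assignment, so how far reads of the closest pair, miR-181b-5p and miR-181d-5p, were kept apart could not be checked.

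The 3p arms tell apart loci that the guides cannot, since identical copies of miR-181a-5p come from a pair of genes. Their sequences, again with bases 2 to 8 in capitals, were:
miR-181a-1-3p: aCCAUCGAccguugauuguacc
miR-181a-2-3p: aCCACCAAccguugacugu
miR-181c-3p: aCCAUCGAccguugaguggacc

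Relative to miR-181a-1-3p, miR-181a-2-3p carries U5C, G7A and U16C over its 19 bases, and miR-181c-3p carries U16G and U19G over 22 bases. miR-181a-1-3p and miR-181c-3p therefore share the seed CCAUCGA, which no entry outside the family held.

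The precursors of miR-181a-2, miR-181c and miR-181d, with both annotated arms in capitals, show where the paired strands sit on either side of the loop:
Mir181a2: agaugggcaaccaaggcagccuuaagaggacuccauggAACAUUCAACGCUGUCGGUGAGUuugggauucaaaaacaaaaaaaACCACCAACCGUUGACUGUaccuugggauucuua
Mir181c: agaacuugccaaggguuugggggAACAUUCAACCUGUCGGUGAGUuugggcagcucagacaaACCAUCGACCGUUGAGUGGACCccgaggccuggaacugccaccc
Mir181d: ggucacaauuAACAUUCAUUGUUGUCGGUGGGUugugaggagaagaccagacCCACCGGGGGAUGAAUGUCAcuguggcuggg

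In the RefSeq gene table the family occupies 3 pairs of neighbouring hairpins, all on the plus strand. Mir181a-1 and Mir181b1 lie on chromosome 13 inside a long noncoding RNA gene, with Ptprc, which encodes the leukocyte antigen CD45, as the next gene after Mir181b1. Mir181a2 and Mir181b2 lie on chromosome 3 within the bounds of Nr6a1, which encodes germ cell nuclear factor. Both of these hairpins also overlap the gene LOC120101539. Mir181c and Mir181d lie on chromosome 19, and the next gene is Nanos3, which encodes an RNA-binding protein of germ cells. Mir181b2 also holds the full miR-181b-5p sequence, so reads of miR-181b-5p, like those of miR-181a-5p, cannot be given to 1 of its loci. Mir3570, on the opposite strand of Mir181a-1, stood at 0 RPM in every library. The submitters' processing notes name build rn6, which differs from GRCr8, so coordinates are not printed.

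Values are reads per 1000000 reads assigned to miRNAs (RPM). Recovered totals lay between 8300536 and 10042673 reads per library, so 1 read was worth 0.0996 to 0.12 RPM and 3 reads, the limit that a count of 0 allows, 0.299 to 0.361 RPM. Such limits and all counting intervals below cover counting error only, as PCR copies were not removed. The hepatocyte miRNA miR-122-5p took 32.7% to 36.6% of each wild type library and 40.2% to 46.4% of each knockout library, while 21 germ and Sertoli cell markers together reached 39.8 to 55.8 RPM in wild type and 28.9 to 33.6 RPM in knockout libraries, 6 of them at 0 in every library. These libraries were labelled testicle, yet they held few reads of testis miRNAs and many of a liver miRNA. In bulk tissue, fewer cells of a type and less RNA per cell cannot be told apart.

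Together the 10 entries were lower in the knockout by 28.4%, without overlap between groups. Wild type libraries 1 to 3 summed to 1649, 1381 and 1230 RPM, and knockout libraries 1 to 3 summed to 906, 1114 and 1029 RPM. The means were 1420 ± 212 and 1017 ± 105 RPM (SD, n = 3; two-sided exact permutation test, p = 0.1, which is the minimum for 3 against 3 libraries, and 0.31 after adjustment over 11 comparisons of sums, shares and ratios). Part of this difference depended on the scaling. With TMM scaling, which equalizes the bulk of the miRNAs between libraries, the sums were 1304 ± 36 and 1095 ± 27, lower by 16.0% and again without overlap (two-sided exact permutation test, p = 0.1). When miR-122-5p was left out of the library totals the difference was 17.9%. The family made up 0.142% ± 0.021 of a wild type library and 0.102% ± 0.010 of a knockout library.

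**Figure D1:**
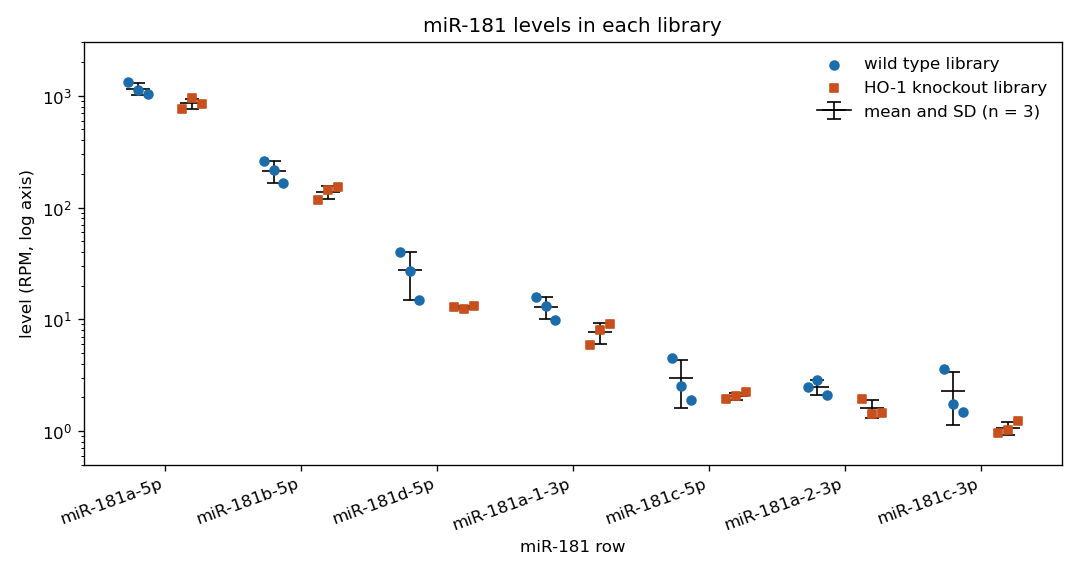
RPM (log axis) of the 7 miR-181 entries above the detection limit in every library, ordered by abundance, with 3 wild type (circles) and 3 HO-1 knockout libraries (squares) and the mean ± SD of each group. Knockout libraries sit below all wild type libraries for every entry shown except miR-181c-5p, and wild type library 1 is the highest of its group for every entry shown except miR-181a-2-3p.

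The thymocyte regulator rno-miR-181a-5p was by far the most abundant member. Wild type libraries 1 to 3 held 1322, 1117 and 1033 RPM of it, and knockout libraries 1 to 3 held 765, 945 and 850 RPM. The groups did not overlap, and every library held at least 6352 reads of it. It ranked 42 of 570 by mean level among wild type libraries and 44 among knockout libraries. The difference in log2(RPM + 1), knockout minus wild type, was -0.44 (SE 0.13, 95% interval -0.74 to -0.14) and did not pass (limma, Benjamini-Hochberg adjusted p = 0.098). With TMM scaling it was -0.21 (limma adjusted p = 0.18).

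The endothelial regulator rno-miR-181b-5p followed: wild type libraries 1 to 3 held 260, 216 and 166 RPM, and knockout libraries 1 to 3 held 117, 144 and 152 RPM. Again every knockout library was lower than every wild type library, although wild type library 3 and knockout library 3 lay close together. Its log2 difference was -0.62 (SE 0.19, 95% interval -1.06 to -0.18; limma adjusted p = 0.11), and -0.39 with TMM scaling (limma adjusted p = 0.087). When only the 218 miRNAs with a mean of at least 10 RPM were tested it was called lower (limma adjusted p = 0.0497), in a fit where 18.8% of the miRNAs were called lower.

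The widest difference among the guides belonged to rno-miR-181d-5p, whose gene neighbours that of miR-181c. Wild type libraries 1 to 3 held 40.2, 27.2 and 14.9 RPM, from 404, 248 and 141 reads. Knockout libraries 1 to 3 held 12.8, 12.4 and 13.1 RPM, from 106, 122 and 118 reads. The knockout libraries were nearly equal and the wild type libraries were not. Counting error alone gave 95% Poisson intervals of 36.4 to 44.3, 23.9 to 30.8 and 12.5 to 17.5 RPM for wild type libraries 1 to 3, which do not overlap one another, whereas the interval of wild type library 3 overlapped those of all 3 knockout libraries.

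Between genotypes miR-181d-5p differed by -0.94 in log2(RPM + 1) (SE 0.33, 95% interval -1.71 to -0.17; limma adjusted p = 0.16). The call depended on the test and on single libraries. On recovered whole reads edgeR's quasi-likelihood test, run with TMM scaling, called it lower (log2 change -0.84, adjusted p = 0.045), where 6.14% of all miRNAs were called lower. With TMM scaling limma did not call it (adjusted p = 0.16). Without wild type library 3 the difference was -1.31 and passed (limma adjusted p = 0.041, with 3.89% of all miRNAs called lower), and without wild type library 1 it was -0.62 and did not (limma adjusted p = 0.27). Over all settings tried, its adjusted p ranged from 0.041 to 0.35.

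The other guide of the chromosome 19 pair, rno-miR-181c-5p, was rare: wild type libraries 1 to 3 held 4.48, 2.52 and 1.90 RPM (45, 23 and 18 reads) and knockout libraries 1 to 3 held 1.93, 2.04 and 2.22 RPM (16, 20 and 20 reads). The groups overlapped, and wild type library 1 stood apart from the other 5. Its log2 difference of -0.32 (SE 0.28, 95% interval -0.98 to 0.34; limma adjusted p = 0.55) shrank to -0.16 with TMM scaling and to -0.06 without wild type library 1.

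Among the 3p arms rno-miR-181a-1-3p was the most abundant. Wild type libraries 1 to 3 held 15.7, 13.0 and 9.92 RPM, and knockout libraries 1 to 3 held 5.90, 8.05 and 9.01 RPM. The lowest wild type and the highest knockout library were close but did not overlap. It differed by -0.68 (SE 0.26, 95% interval -1.28 to -0.08; limma adjusted p = 0.19).

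Its counterpart from the chromosome 3 locus was rno-miR-181a-2-3p. Wild type libraries 1 to 3 held 2.49, 2.85 and 2.11 RPM, and knockout libraries 1 to 3 held 1.93, 1.43 and 1.45 RPM, from 13 to 26 reads each. The groups did not overlap, yet the 95% Poisson interval of wild type library 3, 1.29 to 3.26 RPM, contained all 3 knockout values. The log2 difference was -0.42 (SE 0.21, 95% interval -0.91 to 0.07; limma adjusted p = 0.32) and -0.27 with TMM scaling.

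For rno-miR-181c-3p, wild type libraries 1 to 3 held 3.58, 1.75 and 1.48 RPM, and knockout libraries 1 to 3 held 0.96, 1.02 and 1.22 RPM, from 8 to 36 reads. Wild type library 1 was again the highest. Its 95% Poisson interval, 2.51 to 4.96 RPM, overlapped that of wild type library 2, 1.00 to 2.85 RPM. Its difference was -0.61 (SE 0.27, 95% interval -1.23 to 0.01; limma adjusted p = 0.26), and -0.34 without wild type library 1. The remaining 3p arms were at the detection limit. miR-181b-1-3p had 1 to 3 reads in each library, miR-181b-2-3p 0 to 2, and miR-181d-3p 1 read in wild type libraries 1 and 2 and 0 elsewhere, so no difference was detectable for them at this depth.

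In order of level the wild type ran from miR-181a-5p through miR-181b-5p, miR-181d-5p and miR-181a-1-3p to miR-181c-5p, miR-181a-2-3p and miR-181c-3p. Each mature miRNA is read whole, so no correction for length was made, but ligation can favour some sequences. Among wild type libraries the ranges of the last 3 overlapped one another, and so did those of miR-181d-5p and miR-181a-1-3p. Knockout libraries kept that pair apart, at 12.4 to 13.1 against 5.90 to 9.01 RPM. Within every single library of both genotypes miR-181d-5p was the higher of the pair.

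In the fit over all 570 miRNAs, none of the 10 entries was called in either direction (limma, Benjamini-Hochberg adjusted p below 0.05), where 6.32% of all miRNAs were called, 32 lower and 4 higher. At an unadjusted limma p below 0.05, 4 of the 10 were lower, namely miR-181a-5p, miR-181b-5p, miR-181d-5p and miR-181a-1-3p, against 16.5% of all miRNAs. edgeR's quasi-likelihood test on recovered reads called 1 of the 10, miR-181d-5p, and 10.7% of all miRNAs. Libraries did not overlap, with the knockout lower, for 7 of the 10 entries and for 21.6% of all miRNAs, and 1 of the 7, miR-181b-1-3p, was at the detection limit. The median log2 difference was -0.43 for the 10 entries, -0.12 for all 570 and -0.29 for the 218 of at least 10 RPM. TMM scaling moved that of the 218 by 0.21, to -0.07, left the 10 entries at -0.24 and gave 29 lower and 20 higher calls over all miRNAs, 8.6% of those tested, with 0 of the 10 among them.

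The authors' deposited table lists log2 fold changes of -1.10 for miR-181d-5p and -0.63 for miR-181b-5p, with p-values of 0.0042 and 0.019. For miR-181a-5p the authors' deposited table gives -0.44 with a p-value of 0.13, and for miR-181a-1-3p -0.75 with 0.054. The authors' fold changes are the log2 of the ratio of mean RPM, a measure unlike the differences in log2(RPM + 1) above. Whether these p-values were adjusted is not stated.

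**Figure D2:**
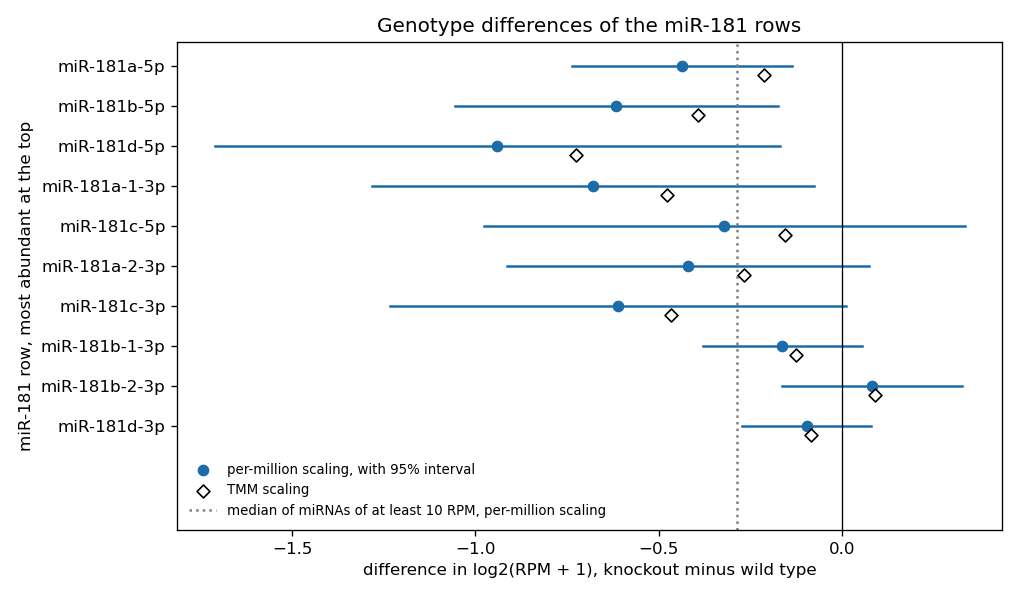
Difference in log2(RPM + 1), knockout minus wild type, for the 10 miR-181 entries with 95% intervals from limma (filled points) and the same difference after TMM scaling (diamonds). The dotted line marks the median of -0.29 over miRNAs of at least 10 RPM, and 9 of the 10 points lie below 0 under both scalings.

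Shares within the family need no library scaling, so they show whether paralogs moved apart. Of the summed 5p reads, miR-181a-5p took 81.3%, 82.0% and 85.0% in wild type libraries 1 to 3 and 85.3%, 85.6% and 83.5% in knockout libraries 1 to 3. Wild type library 3 fell among the knockout libraries. The means were 82.7% ± 2.0 and 84.8% ± 1.1 (SD, n = 3; two-sided exact permutation test, p = 0.2, adjusted 0.31).

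miR-181b-5p held 16.0%, 15.9% and 13.6% in wild type libraries 1 to 3 and 13.1%, 13.1% and 14.9% in knockout libraries 1 to 3, so the groups overlapped as well (two-sided exact permutation test, p = 0.2, adjusted 0.31). miR-181d-5p held 2.47%, 1.99% and 1.22% in wild type libraries 1 to 3, against 1.42%, 1.13% and 1.29% in knockout libraries 1 to 3 (two-sided exact permutation test, p = 0.3, adjusted 0.41). Its mean share was 0.62 percentage points lower in the knockout with all libraries, 0.33 lower without wild type library 1, and 0.95 lower without wild type library 3. The Wilson 95% intervals of single libraries were at most 1.61 points wide for miR-181a-5p, 1.53 for miR-181b-5p and 0.54 for miR-181d-5p, so wild type libraries 1 and 3 differed in all 3 shares by more than counting error.

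miR-181c-5p was 0.206% ± 0.062 of the guides in wild type and 0.206% ± 0.018 in knockout libraries (two-sided exact permutation test, p = 1). Within the closest pair, miR-181d-5p as a share of miR-181b-5p plus miR-181d-5p, a quantity chosen after the values were seen, ran at 13.4%, 11.2% and 8.25% in wild type libraries 1 to 3 and 9.82%, 7.95% and 7.94% in knockout libraries 1 to 3. That share was not constant, and it was highest in wild type libraries 1 and 2.

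**Figure D3:**
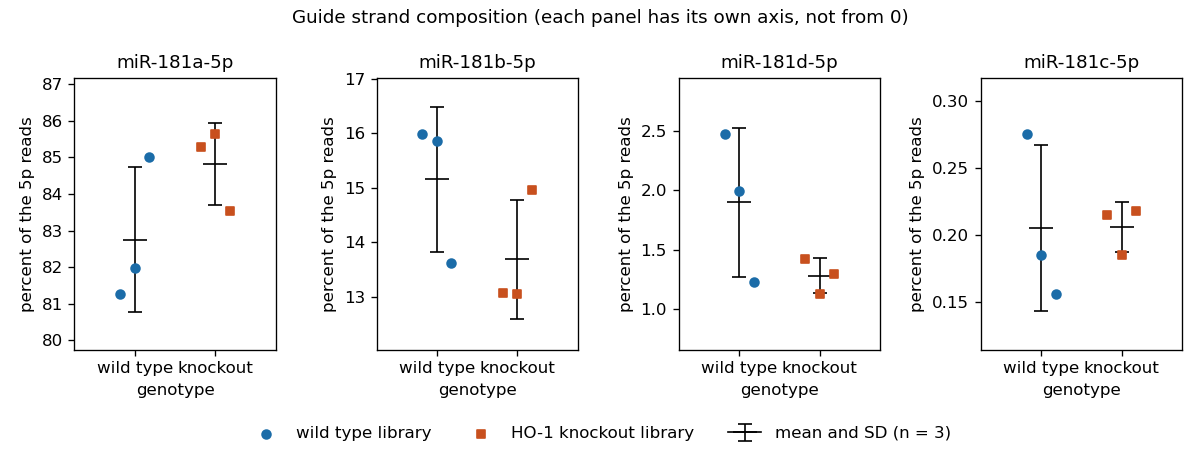
Percent of the summed miR-181 5p reads held by each guide in each library, with the mean ± SD of 3 wild type and 3 knockout libraries. Each panel has its own axis, which does not start at 0. The genotypes overlap in all 4 panels, and wild type library 3, the right-hand circle, lies nearest to the knockout for miR-181a-5p, miR-181b-5p and miR-181d-5p.

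The 3p arms of miR-181a come from its 2 loci, and their reads were compared. Reads of an arm also depend on how much of that strand is kept and on ligation. Their ratio therefore does not measure the output of the loci. miR-181a-1-3p exceeded miR-181a-2-3p by 6.32, 4.58 and 4.70 times in wild type libraries 1 to 3 and by 3.06, 5.63 and 6.21 times in knockout libraries 1 to 3. The chromosome 13 arm was the larger in every library, and knockout library 1 had the lowest ratio. As a share of both arms it was 75.4% in that library (49 of 65 reads, Wilson 95% interval 63.7% to 84.2%) and 82.1% to 86.3% in the others. The mean log2 ratios were 2.36 ± 0.26 for wild type and 2.25 ± 0.55 for knockout libraries (SD, n = 3; two-sided exact permutation test, p = 0.8, adjusted 0.88). The difference of -0.12 turned to 0.20 without knockout library 1 and to 0.03 without wild type library 1.

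Against the shared guide, miR-181a-1-3p stood at a ratio of 0.0110 to miR-181a-5p in wild type and 0.00886 in knockout libraries (geometric means; two-sided exact permutation test, p = 0.2, adjusted 0.31). miR-181a-2-3p stood at 0.00214 and 0.00187 (two-sided exact permutation test, p = 0.4, adjusted 0.49), a log2 difference of -0.20 that ran from -0.41 without knockout library 1 to -0.05 without knockout library 2. The 5p arm was thus 98.6% to 99.0% of the reads of miR-181a in every library. The ratio of miR-181b-5p to miR-181a-5p was 0.183 and 0.161 (two-sided exact permutation test, p = 0.2, adjusted 0.31).

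Only the chromosome 19 pair gave ratios whose groups did not overlap, of the 6 ratios compared. Both of its ratios have the rare miR-181c-5p as denominator, at 16 to 45 reads per library, so they are not independent. miR-181d-5p exceeded miR-181c-5p by 8.98, 10.8 and 7.83 times in wild type libraries 1 to 3 and by 6.62, 6.10 and 5.91 times in knockout libraries 1 to 3. The mean log2 ratio was 3.19 ± 0.23 for wild type and 2.63 ± 0.08 for knockout libraries (SD, n = 3; two-sided exact permutation test, p = 0.1, adjusted 0.31). For miR-181c the 3p arm was less rare beside its 5p arm than for miR-181a.

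The ratio of miR-181c-3p to miR-181c-5p was 0.799, 0.694 and 0.779 in wild type libraries 1 to 3 and 0.497, 0.500 and 0.550 in knockout libraries 1 to 3. Every knockout ratio was lower than every wild type ratio (two-sided exact permutation test, p = 0.1, adjusted 0.31). These ratios rest on 24 to 81 reads per library. As a share of both arms miR-181c-3p was 41.0% to 44.4% in wild type and 33.3% to 35.5% in knockout libraries, with Wilson 95% intervals 21.2 to 35.3 points wide, so the difference lay within the counting error of single libraries.

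**Figure D4:**
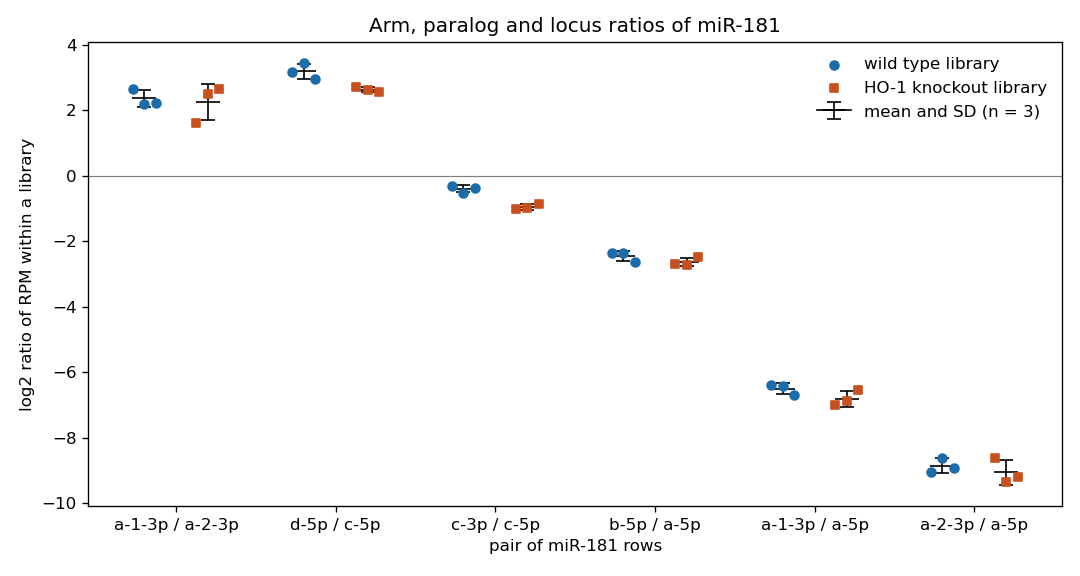
log2 ratio of RPM between pairs of miR-181 entries within each library, with the mean ± SD of 3 wild type (circles) and 3 knockout libraries (squares). Groups do not overlap for miR-181d-5p over miR-181c-5p and for miR-181c-3p over miR-181c-5p, and overlap for the other 4 pairs.

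The miRNAs whose profile over the 6 libraries lay nearest to that of miR-181a-5p were let-7e-5p, miR-23a-3p and miR-532-5p. Likeness was the root mean square difference of log2(RPM + 1), each miRNA centred on its own mean, among 118 candidates of at least 100 RPM. It was 0.05 for let-7e-5p, 0.08 for miR-23a-3p and 0.08 for miR-532-5p, against a median of 0.22 over the candidates. Inside the family it was 0.15 for miR-181b-5p and 0.41 for miR-181d-5p, the latter below the level set for candidates. For let-7e-5p, wild type libraries 1 to 3 held 490, 433 and 393 RPM, knockout libraries 1 to 3 held 307, 355 and 310 RPM, and the log2 difference of -0.44 did not pass (limma adjusted p = 0.091).

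miRNAs known from the same settings were examined as 2 lists. In the lymphocyte list, none of 8 tested members passed in limma. At an unadjusted p below 0.05, 1 was higher and 0 lower, against 2.81% and 16.5% of all miRNAs. miR-142-3p was called higher by edgeR's quasi-likelihood test, which called 4.56% of all miRNAs higher, and by limma with TMM scaling (adjusted p = 0.021), which called 3.51% higher. The median log2 difference of this list was -0.29, and -0.07 with TMM scaling. By mean over all 6 libraries its 2 most abundant members were miR-146a-5p, which NF-κB induces, and miR-142-3p of blood cells, although in wild type libraries alone miR-146b-5p, at 367 RPM, and miR-142-5p, at 328 RPM, were above miR-142-3p. miR-146a-5p stood at 3259 ± 392 RPM in wild type and 2791 ± 381 RPM in knockout libraries, and miR-142-3p at 282 ± 23 and 378 ± 11 RPM (SD, n = 3).

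In the endothelial inflammation list 5 of 9 members fell and 0 rose (limma adjusted p below 0.05), where 5.61% of all miRNAs were called lower. All 9 averaged more than 10 RPM, and 18.8% were called lower when only the 218 miRNAs of at least 10 RPM were tested. This list, like the lymphocyte list, was chosen with earlier results of these data known, so its count is not independent of them. The list's median log2 difference was -0.66, and -0.43 with TMM scaling. The 5 members that fell were miR-126a-3p and miR-126a-5p of endothelium, miR-31a-5p, miR-221-3p and miR-92a-3p, with log2 differences of -0.39, -0.77, -1.25, -2.16 and -0.66. The 2 most abundant members were miR-126a-3p, at 25299.7 ± 817 RPM in wild type and 19302 ± 1170 RPM in knockout libraries, and miR-10a-5p, at 5961 ± 643 and 5140 ± 669 RPM (SD, n = 3), which did not pass (limma adjusted p = 0.38). The calls of miR-31a-5p and miR-221-3p held without any single library, and the other 3 were lost in at least 3 of the 6 fits that left out a library. With TMM scaling 4 of the 9 fell, all but miR-126a-3p of those 5, where 5.09% of all miRNAs were called lower. Both endothelial markers together lay at 25222 to 26982 RPM in wild type and 19147 to 21287 RPM in knockout libraries, and 5 leukocyte markers at 788 to 909 and 838 to 945 RPM. Of 7 smooth muscle and fibroblast markers 4 were called lower, with sums of 12086 to 19225 and 6895 to 9094 RPM, and of 5 epithelial markers 3 were, with sums of 1005 to 1700.3 and 452 to 524 RPM. None of the erythroid, striated muscle and neural markers was called. Their sums were 467 to 580.0 and 377 to 459 RPM for 4 erythroid markers, 87.2 to 142 and 68.3 to 83.1 RPM for 5 striated muscle markers, and 358 to 586 and 735 to 763 RPM for 5 neural markers, whose knockout sums were all above the wild type sums. Over all libraries miR-128-3p averaged 604 RPM and miR-499-5p 93.1 RPM. Most of the neural sum was thus miR-128-3p, and most of the striated muscle sum miR-499-5p. The part of these cell types, and of the larger share of miR-122-5p, in the lower miR-181 levels was not tested.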

How the data were processed

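The authors deposited 1 table with 764 rat miRNA entries and 6 libraries, in RPM (each library sums to 1000000), rounded to 2 decimals. The authors' table also holds their mean RPM per genotype, log2 fold change and p-value, per the file headers. Each library took 1 μg of total RNA and was read as single ends of 50 bp, per the labels' protocols. The submitters' processing notes name FastQC, BWA, edgeR and build rn6. The sources used here do not give the trimming or the treatment of multiply matching reads. Each value column was matched to its sample by name, and 0 sample columns were unmatched.

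On log2(RPM + 1) of the 570 entries above 0 in some library, limma 3.58.1 (R 4.3.3) was run with its trend option and genotype alone as factor. Benjamini-Hochberg adjustment covered all 570, with a threshold of 0.05. Such differences understate changes of rare miRNAs. For sums, shares and ratios, 3 against 3 libraries were compared by an exact permutation test, two-sided, adjusted over 11 comparisons. Whole reads were recovered from the RPM steps: 97.8% to 98.9% of values above 0 were whole reads to within 0.0051 RPM, and the reads of each library summed to its total. In wild type library 1 the step of 0.0996 RPM lies so near 0.1 that low values do not settle its total, which rests on higher values. edgeR 4.0.16 was run on these reads with TMM scaling as an alternative, where it called 61 miRNAs. limma on TMM-scaled RPM and edgeR on reads were also run on simulated data with the same dispersion for all miRNAs. The main fit, on RPM without TMM scaling, was not.

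Alternatives were TMM, RLE and upper-quartile scaling, totals without miR-122-5p, pseudocounts of 0.1 and 5, a mean of at least 10 RPM, a replicate block and leaving out each library. Named miRNAs were all miR-181 entries, the 3 nearest in profile to miR-181a-5p, and called or the 2 most abundant members of 2 related lists. The members and lists were chosen with earlier results of these data known.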

Additional observations from a re-analysis of the deposited data

How the results depend on the processing

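The number of miR-181 entries called was 0 of 10 in the main fit, where 6.32% of all miRNAs were called. It was 1 of 4 when only miRNAs of at least 10 RPM were tested, where 22.9% of the miRNAs were called. Those 4 had limma adjusted p-values of 0.0497 to 0.057 in that fit. In edgeR's quasi-likelihood test on recovered reads the number was 1 of 10, where 10.7% of all miRNAs were called. With single libraries left out it was 1 without wild type library 3, where 4.6% were called, and 0 otherwise, where 0.883% to 4.33% were called. The count over all miRNAs, 36, became 61 in edgeR with TMM scaling, 22 with the replicate block, and 5 to 26 with single libraries left out. Fewer samples enter the latter fits, and for the other settings the cause was not tested. Whether replicate numbers pair the libraries is not settled. Deviations of same-numbered libraries over 218 miRNAs correlated at 0.03, 0.18 and 0.20, and those of differently numbered libraries at -0.29 to 0.06. The replicate block called 0 miR-181 entries. All log2 differences of the 10 entries kept their sign in every setting tried. With single libraries left out, the genotype difference in the share of miR-181c-5p ran from -0.0241 to 0.0355 percentage points and that in the log2 ratio of miR-181a-1-3p to miR-181a-2-3p from -0.31 to 0.20, so neither has a settled direction. The other shares and ratios and the family sum kept their direction, though not their size. Without wild type library 3 the difference in the share of miR-181a-5p grew from 2.08 to 3.21 percentage points, that of miR-181b-5p from -1.46 to -2.23, and the log2 ratio of miR-181b-5p to miR-181a-5p from -0.18 to -0.28. Without wild type library 1 the difference in the share of miR-181a-5p was 1.34 points. Depth limits the entries under 5 RPM, which rest on 45 reads or fewer per library.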
